A study of Danio rerio with 12 samples.

Results

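The liver plasma protein genes described here are 50 genes, measured by 56 probe sets, of the 8793 genes that the Affymetrix zebrafish array measures by a probe set of 1 gene symbol. They were picked by symbol, from the 10795 of 15502 probe sets whose array annotation lists just 1: apolipoproteins of the apoa, apob, apoc and apoe families, the fibrinogen chains, the numbered coagulation factors, complement components c3 to c9, the serpins, and the carriers and inhibitors tfa, hp, hpx, ambp, fetub and itih. The patterns for apoh and ttr matched none of these symbols. The symbol rule reads no measured value, but it was chosen with earlier results of these data known. Transcripts were measured in adult wild-type zebrafish of the AB strain, aged 4 to 12 months and full siblings according to the methods, in 4 groups of 3 arrays: testis, male body minus the testes, ovary, and female body minus the ovaries. The labels describe 3 males and 3 females that spawned together, were then housed apart by sex for 5 days, and were dissected fish by fish. No group received a drug or carried a mutation. A body sample holds every tissue except the gonad, so the liver was not measured on its own, and in such bulk samples fewer cells of a type and less RNA per cell cannot be told apart.

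The liver secretes most of the proteins of blood plasma. Apolipoproteins package and carry lipid, fibrinogen and the coagulation factors form clots, complement tags and lyses microbes, serpins inhibit proteases, and transferrin, haptoglobin and hemopexin bind iron, hemoglobin and heme. Many of these genes are also transcribed elsewhere: intestine makes lipoprotein components, macrophages and other cells make apolipoprotein E and complement, and in the rat the Sertoli cells of the testis secrete transferrin. The symbol rule also took members that are not liver plasma proteins: f8a, a gene named after the human coagulation factor VIII gene that contains it, serpinh1b, a collagen chaperone of the endoplasmic reticulum, serpine2, a protease inhibitor of the cell surface and matrix, and the intracellular inhibitors serpinb1l2 and serpinb1l3.

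The values are signals on a linear scale, which the authors scaled to the same trimmed mean on every array. Signals below 32 were set to this floor before log2 was taken. Ovary arrays had 33.0% to 35.7% of all probe sets at this floor, testis arrays 14.1% to 17.9%, female body arrays 12.3% to 18.3% and male body arrays 10.4% to 11.8%. Intracellular liver genes were checked beside the members: their median signal on the female body arrays was 53.5%, 55% and 79.6% of the male body mean (28 probe sets), so transcript of hepatocytes was present in both bodies. Oocyte transcripts were also present in the female bodies, at a median of 76.9%, 48.7% and 33.0% of the ovary mean on arrays 1, 2 and 3 (10 probe sets), against 0.531% to 0.885% in the male bodies. Summed over the list, the female bodies had signals of 33309 to 71863 and the male bodies 327.5 to 712.5, and their part in the results below was not tested.

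Plasma protein transcripts were present throughout both bodies and sparse in the gonads, more so in the ovary. Of the 56 probe sets, 51 were above the floor on all 3 female body arrays, 52 on male body, 41 on testis and 15 on ovary. At the floor on all 3 arrays were 3 in female body, 2 in male body, 7 in testis and 30 in ovary. Of all probe sets 9.55%, 5.46%, 11.3% and 29.4% were, so the members lay well above that share in ovary only, and near it in testis. Only serpina10a and serpinb1l2 were at or below the floor on all 12 arrays, and they entered no test. The members held 2.02% to 2.18% of the summed signal of all probe sets on the female body arrays, 2.18% to 3.07% on male body, 0.191% to 0.345% on testis and 0.0508% to 0.0625% on ovary arrays.

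**Figure D1:**
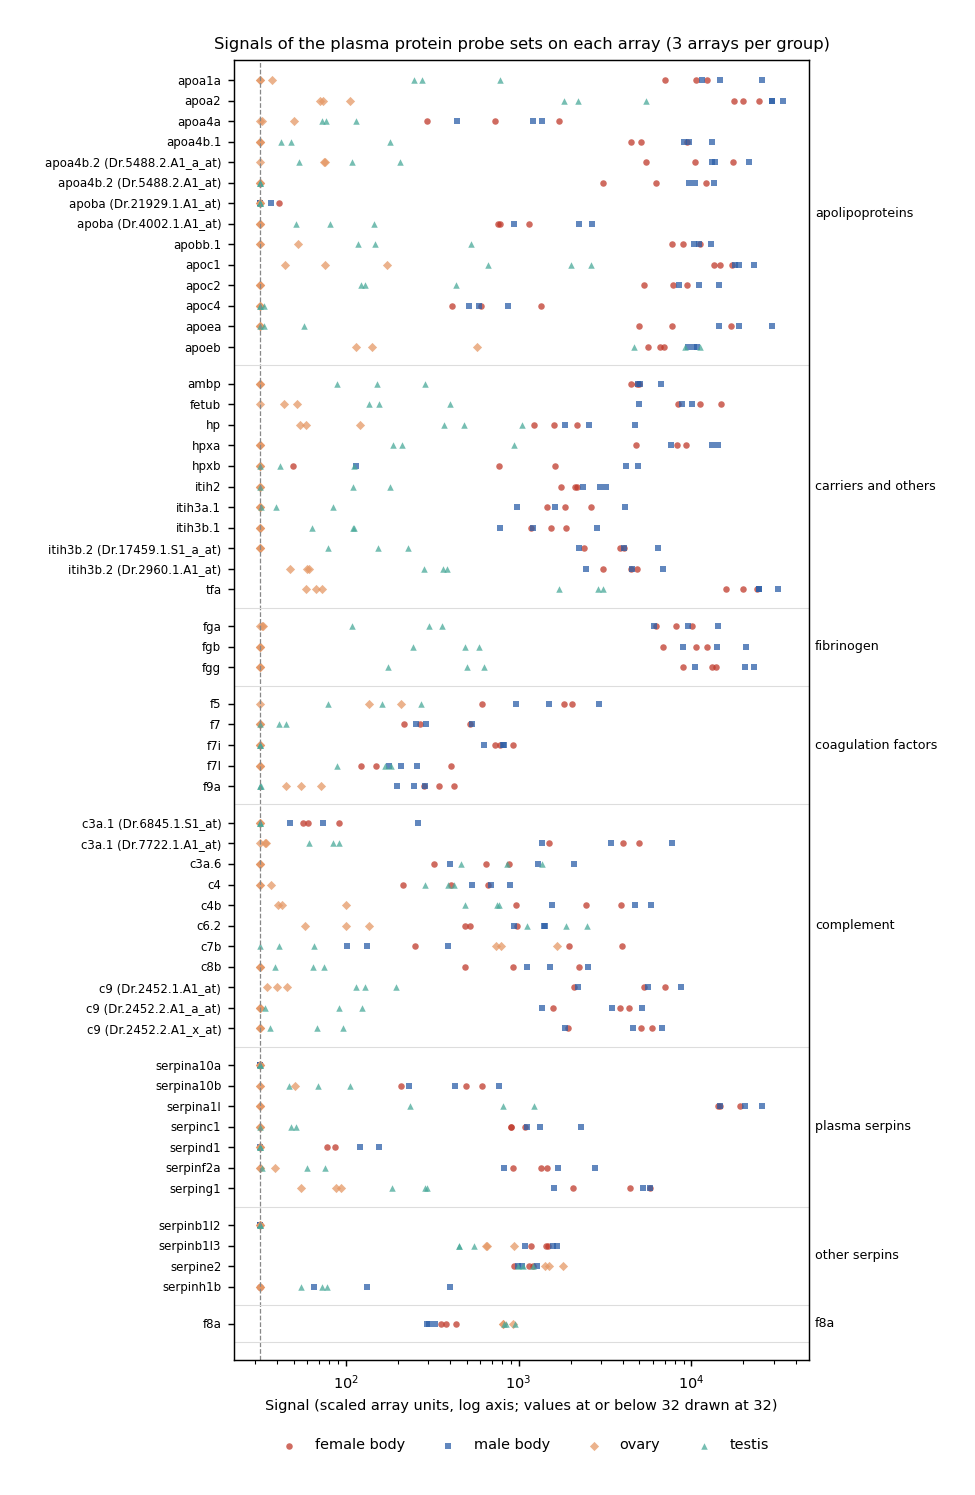
Signal of each of the 56 probe sets on each of the 12 arrays (log axis, scaled array units; values at or below 32 are drawn at 32, the dashed line), with 3 points per group. Body points lie to the right and ovary points to the left in most rows, and testis points lie between them, with apoeb, c3a.6, c6.2, serpine2 and f8a among the rows where testis reaches the body level or passes it.

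Few plasma protein genes were called different between male and female body. Of the 54 members tested, 3 were higher in male body at an adjusted p under 0.05 (limma, Benjamini-Hochberg over 14941 probe sets) and 0 were lower, and 9 had an unadjusted p under 0.05. That is 5.56% of the members, where 18% of all probe sets were called higher and 12.9% lower. The median log2 difference of the members was 0.34 and that of all probe sets 0.27, and 42 of the 54 differences (77.8%) were above 0, where 64.5% of all probe sets were. The intracellular liver genes had a median of 0.73, with 6 of 28 higher and 1 lower. Of 31 probe sets of 26 other plasma protein genes, such as plasminogen, kininogen and ceruloplasmin, 5 were higher in male body and 0 lower, with a median of 0.37. In the cell type lists 7 of 12 leukocyte, 3 of 5 erythrocyte and 2 of 10 enterocyte probe sets were higher in male body. Their medians were 1.42, 2.35 and 1.11, and 0 were lower. In exocrine pancreas 3 of 10 and in the oocyte list 10 of 10 probe sets were lower, with medians of -0.42 and -6.22. Of the skeletal muscle probe sets 0 of 10 were called, but 10 of 10 differences were above 0, with a median of 0.64. Summed leukocyte signals were 8223 to 12422 in the male and 1575 to 5504 in the female bodies. The part of these cell types in the member differences was not tested.

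Most apolipoprotein probe sets lay on the male side of 0, and 1 was called. The apoeb signal, for a lipoprotein ligand of the low density lipoprotein receptors, was 10809.7, 9567 and 10413 in male body and 5600.2, 6977 and 6585 in female body. The groups did not overlap, and the log2 difference was 0.69 ± 0.19 (SE), adjusted p = 0.033. For its paralog apoea the signals were 29311, 18809 and 14340.2 in male body and 5000.2, 7670.0 and 16946 in female body, which overlap on female body array 3, and the difference was 1.2 ± 0.47 (SE), adjusted p = 0.085, not called. Of the fits that left out 1 array, only the one without that array called apoea (log2 1.69, adjusted p = 0.015). The high density lipoprotein gene apoa1a read 25759, 11563 and 14645.5 in male and 7060.5, 10570.1 and 12262 in female body, overlapping (log2 0.75 ± 0.36 (SE), adjusted p = 0.14). For apoa2, of the same particles, the arrays did not overlap, with 33899, 29317 and 29054 against 17518, 19944 and 24458, yet the adjusted p missed the threshold (log2 0.59 ± 0.25 (SE), adjusted p = 0.1). Of the 14 apolipoprotein probe sets 12 were on the male side of 0, where 9643 of all 14941 probe sets were. Their median log2 difference was 0.62, and apoeb alone was called. Skeletal muscle genes had a like median, 0.64, with 10 of 10 above 0. The apoeb call did not hold without female body 2 or without any 1 of the male body arrays (log2 0.65 to 0.76, adjusted p = 0.072 to 0.10).

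The other calls were in complement and in a serpin that is no plasma protein. The gene c6.2, for a component of the membrane attack complex, had signals of 1399, 1427 and 944 in male body and 524.5, 974 and 493 in female body. Female body 2 lay above male body 3, so the groups overlap, and the difference was 0.97 ± 0.31 (SE), adjusted p = 0.048. This call was lost without each of the arrays except female body 2 (adjusted p = 0.066 to 0.13). The collagen chaperone gene serpinh1b was at or below the floor on all 3 female body arrays and read 399, 65.7 and 132 in male body, so the male bodies were higher by at least 4.73-fold (log2 2.24 ± 0.58 (SE), adjusted p = 0.026). Its values are low, and the call was lost without female body 1, female body 2 or male body 3 (adjusted p = 0.067 to 0.071). Genes of fibroblasts and matrix, which include collagens, had 1 of 10 higher in male body and 0 lower, with a median of 1.06, and their part in the serpinh1b difference was not tested.

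The complement gene c7b, whose product joins the same attack complex as that of c6.2, went the other way. It read 3969, 1951 and 252 in female body and 133, 391 and 101 in male body, a log2 difference of -2.84 ± 0.97 (SE), adjusted p = 0.059, not called. Female body 1 and 2 were above every male array and female body 3 was below male body 2. Of the fits that left out 1 array, only the one without female body 3 called c7b (log2 -4.00, adjusted p = 0.0048). In ovary c7b read 1662, 788 and 741.5 and in testis 65.6, 40.9 and 10.6, so that the gonads differed in the same direction (log2 -4.49 ± 0.41 (SE), adjusted p = 7.7e-05). The signals on female body 1 and 2 were higher than on any ovary array. Across the 3 female bodies c7b had the same order as the share of oocyte transcripts given above, and the part of the latter was not tested. Most complement probe sets had such an order too, counting c7b and those with a female body mean of at least 100. Of these, 9 of 10 were highest on array 1 and 10 of 10 lowest on array 3, against 44.9% and 37.8% of all probe sets. The genes c7b and c6.2 are neighbours in the GRCz12tu RefSeq annotation, with no protein-coding gene between them.

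The liver's most typical products showed no sex call. Transferrin (tfa) read 31548, 24688 and 24735 in male and 15855, 19926 and 23895 in female body, without overlap (log2 0.45 ± 0.26 (SE), adjusted p = 0.21). The antitrypsin-like gene serpina1l read 20393, 25568 and 14551 against 14549, 19153 and 14242, overlapping (log2 0.31 ± 0.28 (SE), adjusted p = 0.41). The fibrinogen chain genes fga, fgb and fgg all overlapped, at log2 differences of 0.23, 0.51 and 0.53, with 95% intervals from -0.56 to 1.35 in all. On the female side of 0 lay fetub, for fetuin B (log2 -0.55 ± 0.33 (SE), adjusted p = 0.22), and f9a, for coagulation factor IX (log2 -0.52 ± 0.26 (SE), adjusted p = 0.16), neither of them called. By contrast, all 6 probe sets of vitellogenins and other estrogen-responsive genes of the liver were higher in female body, at a median of -7.11, male minus female.

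**Figure D2:**
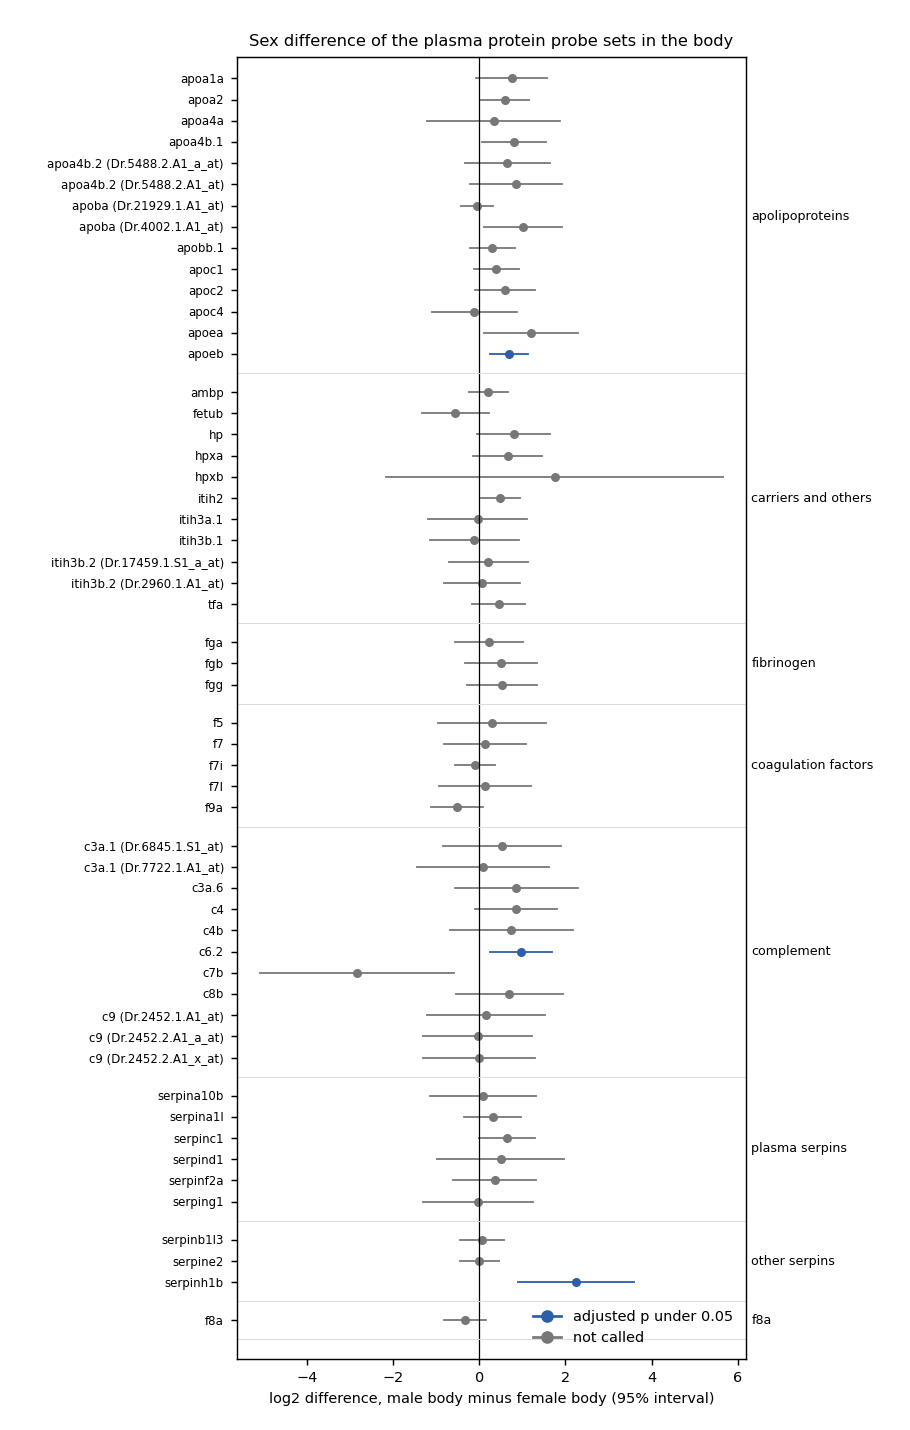
Log2 difference between male and female body for each of the 54 members tested, with its 95% interval from the limma fit of 6 arrays. Blue points are the 3 called members, apoeb, c6.2 and serpinh1b, and the widest intervals are those of hpxb and c7b.

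The order of the 3 body arrays of a sex, each of 1 fish, differed between the roles. Complement was lowest on array 3 of either sex: 10 of 10 complement probe sets in female body and 11 of 11 in male body, counting those whose group mean reached 100, where 37.8% and 30.3% of all such probe sets were lowest on that array. The median complement probe set on array 3 stood at 44.2% of its group mean in female body and at 40.7% in male body. Of these complement probe sets 3 are of c9 and are not independent. For c3a.1, a gene of the central complement protein, the probe set Dr.7722.1.A1_at read 4991, 4029 and 1498 in female body and 7685, 3446.5 and 1371 in male body. For c4b the signals were 3907, 2445 and 965 in the female and 4687, 5829 and 1570.2 in the male bodies. Array 3 of each body was the low one in both genes.

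Some other members followed complement. By the same count, 7 and 6 of 11 carrier probe sets were lowest on array 3 of female and male body. So were 4 of 5 and 3 of 6 of the plasma serpins, where 37.8% and 30.3% of all probe sets were. Of the 5 coagulation factor probe sets 4 were lowest on array 3 of male body. In female body 2 were, near the share of all probe sets, and 2 were lowest on array 1. The 3 fibrinogen chain genes were lowest on array 3 of both bodies, with fgb at 12316.5, 10612 and 6819 in female body and 14035, 20579.6 and 8934 in male body. The heme carrier gene hpxb varied most, with 1633, 768 and 49.3 in female body and 4931, 4157 and 115 in male body, a 33.1-fold and a 42.8-fold range within a group. Its sex difference had accordingly no usable precision (log2 1.75 ± 1.69 (SE), adjusted p = 0.44, 95% interval -2.16 to 5.66). Its paralog hpxa ranged over 1.95-fold and 1.88-fold, and read 4758, 9285 and 8234 in the female and 13166, 7595 and 14283 in the male bodies. The inhibitor gene serping1, which acts on the proteases that start the classical complement pathway, read 5730.2, 4423 and 2068 in the female and 5260.5, 5750.2 and 1608 in the male bodies, again lowest on array 3.

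Apolipoproteins did not follow that order. In female body 12 of 13 apolipoprotein probe sets were lowest on array 1 and 10 of 13 highest on array 3, and in male body 13 of 13 were highest on array 1, against 41.8%, 37.0% and 34.8% of all probe sets. The gene apoa4b.1, for a lipoprotein component made in the intestine, read 4498, 5092 and 9475 in female body, low on array 1 and high on array 3, and 13219, 8997 and 9618 in male body. Enterocyte genes had a like order in female body, at medians of 28.7%, 42.6% and 89.5% of the male body mean on arrays 1, 2 and 3 (10 probe sets). Skeletal muscle genes (47.1%, 64.3% and 91.4%), fibroblast and matrix genes (15.3%, 21.8% and 63.7%) and erythrocyte genes (8.54%, 21.3% and 29.0%) rose likewise. So did the intracellular liver genes given above, and the order was not particular to intestine or apolipoproteins. Leukocyte and exocrine pancreas genes were lowest on array 1 and highest on array 2, and oocyte genes fell from array 1 to 3. Intracellular liver genes stood at 110%, 82.4% and 91.5% on the 3 male body arrays, and thus were not lowest on array 3 of either body. The part of all these lists in the orders of the members was not tested. The male and female body arrays with the same number come from different fish, and the labels do not say what else a number shares across the sexes. Their deviations from the group means correlated at 0.064, 0.096 and 0.20 for numbers 1, 2 and 3, and at -0.14 to 0.061 for unlike numbers. Whether arrays of a number were handled together was not tested. With array 3 of both bodies left out, an alternative added after these values were seen, 4 members were called, and none of them was among the 3 above: apoea, apoa4b.1 and hpxb higher in male body and c7b lower.

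**Figure D3:**
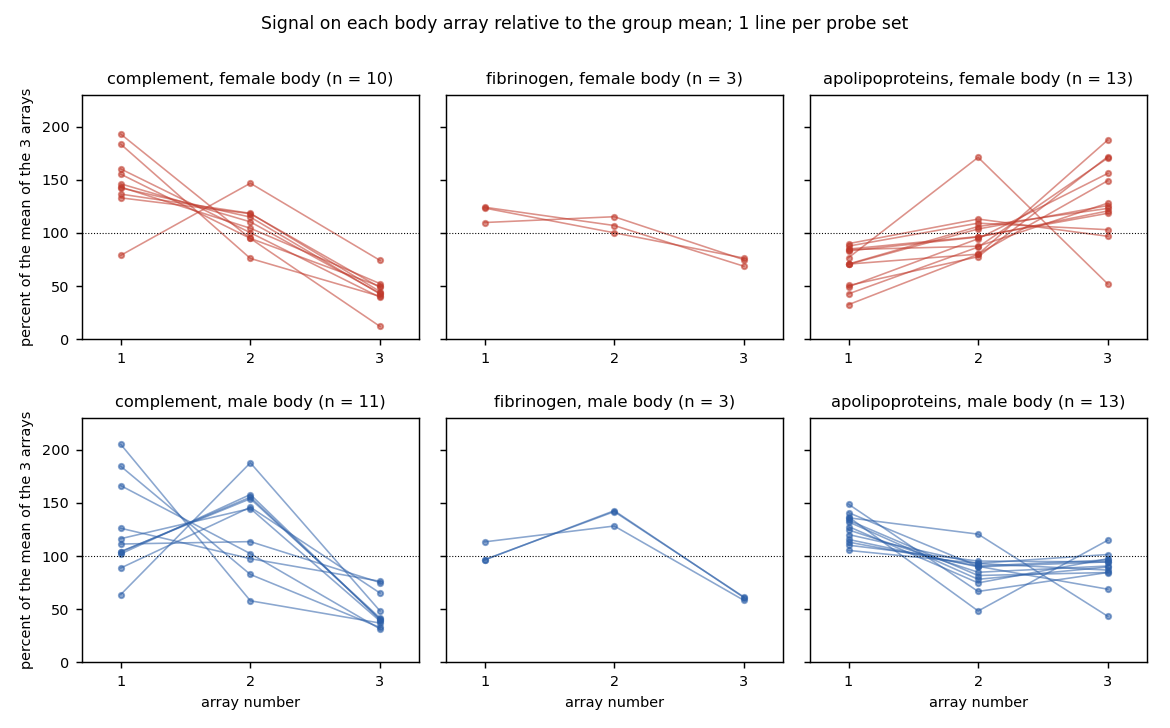
Signal on each body array as a percent of the mean of its 3 arrays, for complement, fibrinogen and apolipoprotein probe sets whose group mean reached 100 (1 line per probe set; lines join the arrays of a group and carry no order). Complement and fibrinogen lines end low on array 3 in both sexes, while apolipoprotein lines start low on array 1 in female body and high on array 1 in male body.

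Testis had more plasma protein transcript than ovary. Of the 49 members tested, 33 were higher in testis, 4 were higher in ovary and 12 were not called (limma, adjusted p under 0.05), that is 75.5% called, where 42.5% of all probe sets were called higher in testis and 24.4% higher in ovary. The 7 members left were at or below the floor on all 6 gonad arrays. Since 30 members were at the floor on every ovary array, a member often entered the test through testis alone, and the count is a description. The median log2 difference was 1.53 for the members tested and 0.36 for all probe sets. When each array was centred on its median, the median of all probe sets moved to -0.44, and 25 members were higher in testis and 7 in ovary. With a floor of 100, 38 members were tested and 20 called. Of the other plasma protein genes 21 of 29 probe sets were higher in testis and 1 in ovary, and of the intracellular liver genes 14 of 23 and 0.

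Transferrin and apoeb, both above the floor in either gonad, had the largest fitted differences, while those of members at the ovary floor are bounds that cannot be ranked. The tfa signal was 1719.9, 2879 and 3098 in testis and 58.9, 73.1 and 67.5 in ovary, 37.5-fold apart (log2 5.23 ± 0.26 (SE), adjusted p = 6.1e-06). Every testis array was far above every ovary array. Among the apolipoproteins apoeb read 4683, 9154 and 11159.5 in testis and 141, 574 and 115 in ovary (log2 5.22 ± 0.63 (SE), adjusted p = 0.00031), apoa2 read 1823, 2206 and 5432 against 105.5, 74.4 and 71.3 (log2 5.08 ± 0.42 (SE), adjusted p = 4.9e-05), and apoc1, a component of triglyceride-rich particles, read 669, 2006 and 2624 against 76.4, 174 and 44.3 (log2 4.18 ± 0.65 (SE), adjusted p = 0.0011). Testis 1 was the low one for all of them. Of the 12 apolipoprotein probe sets tested 8 were higher in testis and 0 in ovary, where 42.5% and 24.4% of all probe sets were. Those of apoa4b.1, apoba (Dr.4002.1.A1_at), apoc2, apoc4 and apoea entered through testis alone, so the count is a description.

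Complement was called in all 10 of its probe sets tested, 9 higher in testis and c7b in ovary, where 42.5% and 24.4% of all probe sets were. Of the 10, 3 are of c9. Those of c3a.6 and c8b, and Dr.2452.2.A1_a_at and Dr.2452.2.A1_x_at of c9, entered through testis alone, so the count is a description. Quantile normalization lost the calls of c3a.1 (Dr.7722.1.A1_at) and of c9 (Dr.2452.1.A1_at and Dr.2452.2.A1_a_at) (limma, adjusted p = 0.060 to 0.72). For c3a.6 the signals were 1365, 859.8 and 463 in testis, with all 3 ovary arrays at the floor, at least 25.5-fold apart (log2 4.67 ± 0.39 (SE), adjusted p = 5.3e-05). For c6.2 they were 1888.5, 2489 and 1123 in testis and 136, 101 and 58.5 in ovary (log2 4.23 ± 0.40 (SE), adjusted p = 9.2e-05), for c4b 746, 767 and 492 against 101, 42.8 and 40.4 (log2 3.55 ± 0.40 (SE), adjusted p = 0.00022), and for c4 287, 424 and 389 against 37.1, 26.9 and 15.0 (log2 3.43 ± 0.23 (SE), adjusted p = 2.0e-05). The neighbours c6.2 and c7b were thus apart in opposite directions, without overlap in either. The remaining complement calls were smaller, from 0.84 for c8b to 1.83 for c9 (Dr.2452.1.A1_at). That of c8b was lost without testis 2 or testis 3 (adjusted p = 0.067 and 0.052), and those of the other c9 probe sets, at 0.96 and 1.19, were lost without any 1 of the ovary arrays, testis 2 or testis 3 (adjusted p = 0.080 to 0.16).

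The 3 fibrinogen chains were all higher in testis. For fgb the testis signals were 246, 588 and 490.5 and the ovary arrays at the floor, at least 12.9-fold apart (log2 3.69 ± 0.34 (SE), adjusted p = 8.4e-05), for fgg 175, 630.2 and 506, at least 12.0-fold (log2 3.58 ± 0.47 (SE), adjusted p = 0.00045), and for fga 108, 362 and 303 against 33.3, 15.5 and 32.9 (log2 2.80 ± 0.45 (SE), adjusted p = 0.0012). Testis 1 was the lowest array in each, as it was for serpina1l, with 236, 1236 and 814 and the ovary at the floor, at least 19.3-fold apart (log2 4.27 ± 0.58 (SE), adjusted p = 0.00052). The hemopexin gene hpxa read 188, 210.5 and 935.5 in testis with the ovary at the floor, at least 10.4-fold apart (log2 3.38 ± 0.60 (SE), adjusted p = 0.0019). Its paralog hpxb read 41.5, 111.5 and 3.7 and was not called (log2 0.73 ± 0.43 (SE), adjusted p = 0.17). Haptoglobin (hp) was higher in testis at 369, 1045 and 481.5 against 54.2, 121 and 59 (log2 2.97 ± 0.48 (SE), adjusted p = 0.0012), as were ambp, fetub, itih3b.1 and both probe sets of itih3b.2, with log2 differences from 1.53 to 2.61. In the carrier group 8 of 11 probe sets were called, all higher in testis, where 42.5% of all probe sets were. The genes itih2, itih3a.1 and hpxb were not called. The probe sets of ambp, hpxa, hpxb, itih2, itih3a.1, itih3b.1 and itih3b.2 (Dr.17459.1.S1_a_at) entered through testis alone, so the count is a description.

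Higher in ovary beside c7b were members with small differences: f9a (log2 -0.81 ± 0.18 (SE), adjusted p = 0.0056), for which 2 testis arrays were at the floor, serpinb1l3 (log2 -0.61 ± 0.20 (SE), adjusted p = 0.029) and serpine2 (log2 -0.53 ± 0.15 (SE), adjusted p = 0.015). The serpine2 signals were 1502, 1816 and 1419.5 in ovary and 1065, 1213 and 991 in testis, without overlap. The serpinb1l3 call was lost without ovary 1, testis 2 or testis 3 (adjusted p = 0.084 to 0.097). For f8a the gonads overlapped, with 817, 815 and 931 in ovary and 848, 819 and 953 in testis (log2 0.03 ± 0.13 (SE), adjusted p = 0.84). Of the coagulation factor genes f7 and f5 were not called, f7i was at the floor on all 6 arrays, and f7l was higher in testis at 89.3, 169 and 182, at least 4.38-fold (log2 2.13 ± 0.29 (SE), adjusted p = 0.0005).

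Testis level was set beside the male body, the contrast in which most members were far lower in the gonad. Of 54 tested, 45 were lower in testis, 1 was higher and 8 were not called, that is 85.2% called, where 29.9% of all probe sets were called lower and 29.2% higher in testis. Of those tested, 5 were at the floor on every testis array and so entered through male body alone, and 3 of them were among the 45, so the count is a description. The median log2 difference was -4.35 for the members and -0.12 for all probe sets. Of the intracellular liver genes 25 of 28 were lower in testis and 1 was higher, with a median of -3.50, and of the other plasma protein genes 27 of 31 were lower and 0 higher, with a median of -2.97. This comparison and that of the gonads share the testis arrays.

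Among the 41 members above the floor on all 6 arrays, the mean testis signal ran from 0.763% to 283% of that of the male body, with a median of 4.73%, and 21 of the 41 were under 5%. The median over all 11321 probe sets that met the same condition was 99.8%, and 1.29% of them were under 5%. Intracellular liver genes had a median of 8.13% (18 probe sets), from 0.418% to 228%. For fabp10a, the abundant fatty acid binding protein of hepatocytes, the testis signals were 448.6, 137.7 and 2316 and the male body signals 25375, 9243 and 24301. Exocrine pancreas genes stood in testis at medians of 47.2%, 20.4% and 18.5% of the male body mean on arrays 1, 2 and 3 (10 probe sets), enterocyte genes at 0.894% to 1.05% and skeletal muscle genes at 0.647% to 0.658%. What these cell types contributed to the testis signals was not tested.

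Fibrinogen and most apolipoproteins were close to the low end. Among the 41 members above the floor on all 6 arrays, the lowest was apoa4b.2 (Dr.5488.2.A1_a_at), with 53.9, 109 and 206 in testis and 21549, 13173 and 13628 in male body. For apoea testis read 33.7, 57.6 and 23.0, with array 3 at the floor, against 29311, 18809 and 14340.2 in male body, 503-fold apart on the floored scale (log2 -8.97 ± 0.32 (SE), adjusted p = 1.1e-06). The fibrinogen genes fga, fgb and fgg stood at 2.59%, 3.04% and 2.43%, serpina1l at 3.78%, ambp at 3.18% and fetub at 2.91%. Other large log2 differences were those of apoa4b.1 (-7.19), apoc2 (-5.86), apobb.1 (-5.76) and apoa1a (-5.43). The hpxb difference, -4.65, was called, but not without male body 1, male body 2, testis 1 or testis 3 (adjusted p = 0.062 to 0.078). Less far below the body were apoc1 at 8.87%, tfa at 9.5%, apoa2 at 10.3%, c4b at 16.6% and hp at 20.8%.

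At the other end, 7 of the 41 had a testis mean of at least 50% of the male body mean: f8a, c6.2, serpine2, apoeb, c3a.6, f7l and c4. Of all probe sets above the floor on the same 6 arrays 79.7% did. In testis apoeb read 4683, 9154 and 11159.5, which overlaps the 10809.7, 9567 and 10413 of male body (log2 -0.39 ± 0.30 (SE), adjusted p = 0.29, 95% interval -1.09 to 0.31). This is 81.2% of the body mean, against 0.183% for apoea. For c6.2 the testis arrays read 1888.5, 2489 and 1123 and the male body arrays 1399, 1427 and 944 (log2 0.50 ± 0.31 (SE), adjusted p = 0.2). With the replicate number as a block (testis and body of the same number deviated together) c6.2 was called higher in testis (adjusted p = 0.032), and so it was without testis 3 (log2 0.81, adjusted p = 0.031). The block also brought in serpinh1b and serpind1, the heparin cofactor gene, both lower in testis (adjusted p = 0.040 and 0.024). For c3a.6 testis read 1365, 859.8 and 463 and male body 2106, 1296 and 399.9, in the same order of the arrays (log2 -0.34 ± 0.63 (SE), adjusted p = 0.67, 95% interval -1.81 to 1.14). Its neighbour c3a.1 (Dr.7722.1.A1_at), with 1 protein-coding gene between them, read 84.9, 61.6 and 91.8 in testis, 42.3-fold below male body (log2 -5.40 ± 0.56 (SE), adjusted p = 0.00014). The related genes c4 and c4b were both lower in testis, at 51.7% and 16.6% (log2 -0.94 ± 0.24 (SE), adjusted p = 0.012 and log2 -2.42 ± 0.47 (SE), adjusted p = 0.0032).

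**Figure D4:**
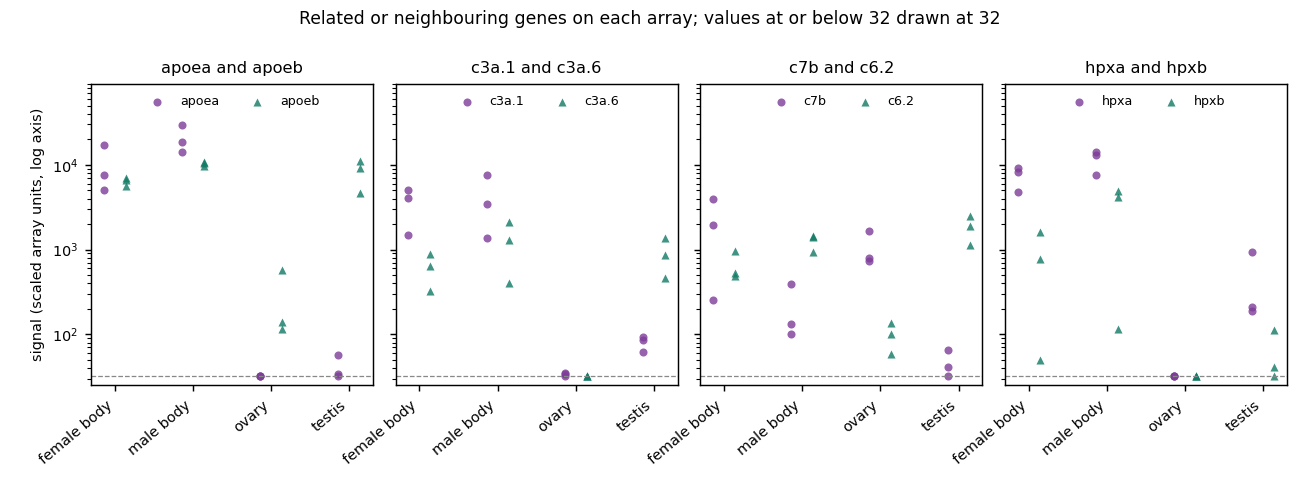
Signals of 4 pairs of related or neighbouring genes on each array (log axis; 3 arrays per group; values at or below 32 are drawn at 32, the dashed line; c3a.1 is Dr.7722.1.A1_at), with groups to be compared within a gene only. The testis points of apoeb, c3a.6 and c6.2 reach those of male body and the testis points of apoea, c3a.1 and c7b lie below them, and c7b has ovary points of 741.5 and more.

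Leukocyte and macrophage genes, markers of cells that can also make apolipoprotein E and complement, stood in testis at medians of 19.8%, 49.4% and 15.9% of the male body mean on arrays 1, 2 and 3, and in ovary at 3.25% to 4.98% (12 probe sets). Against ovary, 6 of 8 tested were higher in testis and 0 lower, and fibroblast and matrix genes were higher in testis in 7 of 9 and lower in 2. Erythrocyte genes were higher in testis in 5 of 5. These lists moved mostly in the same direction as apoeb, c3a.6 and c6.2 in that contrast, but so did others. Exocrine pancreas genes were higher in testis in 10 of 10 and skeletal muscle genes in 9 of 10. Enterocyte genes were higher in 2 of 7 tested and oocyte genes lower in 10 of 10. The part of these lists was not tested. Somatic genes of the testis such as amh were higher in testis in 5 of 5.

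Coagulation factor VII and its neighbours differed among themselves. The genes f7l, f7 and f7i lie side by side in the GRCz12tu annotation, f7 coding for the protease that starts coagulation. In testis f7l read 89.3, 169 and 182 against 260.0, 209.8 and 179 in male body, overlapping (log2 -0.61 ± 0.32 (SE), adjusted p = 0.14), whereas f7 read 6.3, 45.3 and 41.0 against 535, 290.5 and 255 (log2 -3.13 ± 0.33 (SE), adjusted p = 0.00014) and f7i was at the floor on all 3 testis arrays, at least 23.6-fold below male body (log2 -4.56 ± 0.21 (SE), adjusted p = 3.4e-06). In the run of neighbours apoa4b.2, apoeb, apoc1, apoc4, apoa2 and apoc2, likewise with no protein-coding gene between them, testis stood at 0.763%, 81.2%, 8.87%, 3.47%, 10.3% and 2.03% of male body (apoa4b.2 by Dr.5488.2.A1_a_at, and apoc4 with 2 testis arrays at the floor). The apolipoproteins of 1 chromosomal run thus had unlike testis levels.

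**Figure D5:**
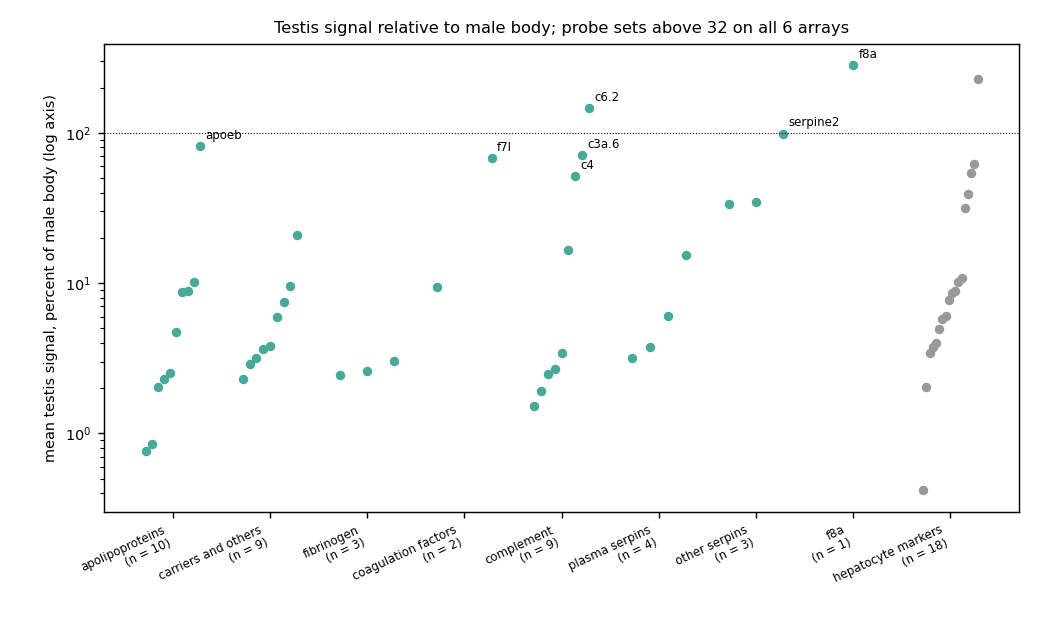
Mean testis signal as a percent of the mean male body signal (log axis), for members above the floor on all 6 arrays, by class, with intracellular liver genes in grey. Most points lie under 20%, and the named ones are the 7 members at 50% or more.

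The testis level, as a percent of the male body of the same number, differed between the 3 numbers. Set against the body array of the same number, testis 1 had the lowest percent in 33 of the 41 members, where 37.3% of all probe sets did, and the median percent over the members was 2.90%, 4.11% and 9.15% for numbers 1, 2 and 3. The intracellular liver genes did not single out number 1 in the same way (7 of 18), at medians of 7.42%, 9.21% and 8.72%. For tfa the percents were 5.45%, 11.7% and 12.5%, and for serpina1l 1.16%, 4.83% and 5.59%. For apoeb they were 43.3%, 95.7% and 107%, so number 1 was low there as well, while c6.2 stood at 135%, 174% and 119%.

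In ovary, most members were at the floor. Of 53 tested against female body, 48 were lower in ovary, 2 were higher and 3 were not called, that is 94.3% called, where 29.5% of all probe sets were called lower and 28.2% higher in ovary. Of those tested, 27 were at the floor on every ovary array and so entered through female body alone, and 25 of them were among the 48, so the count is a description. Of the 26 others, 23 were lower and 2 higher. The median was -5.56 for the members and -0.05 for all probe sets. The antitrypsin-like gene serpina1l, with ovary at the floor, was at least 495-fold lower (log2 -8.95 ± 0.19 (SE), adjusted p = 1.1e-06), fgg at least 367-fold (log2 -8.52 ± 0.22 (SE), adjusted p = 1.1e-06) and fgb at least 301-fold (log2 -8.23 ± 0.25 (SE), adjusted p = 1.4e-06). Where ovary was above the floor on all arrays the folds can be given: tfa was 296-fold lower (log2 -8.21 ± 0.20 (SE), adjusted p = 1.1e-06) and apoa2 248-fold (log2 -7.95 ± 0.22 (SE), adjusted p = 1.1e-06). Of the intracellular liver genes 25 of 28 were lower in ovary and 1 higher, and of the other plasma protein genes 28 of 31 and 0. Vitellogenin and the other estrogen-responsive liver genes were lower in ovary in 6 of 6.

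The 15 members above the floor on all ovary arrays stood at a median of 4.33% of female body. At 50% or more were 4 of them, f8a, serpine2, serpinb1l3 and c7b. Over all 9162 probe sets above the floor on all ovary and female body arrays the median was 145%, and 85.7% were at 50% or more. Intracellular liver genes had a median of 13.2% (7 probe sets). For c7b the groups overlapped (log2 -0.33 ± 0.93 (SE), adjusted p = 0.77). Without female body 1 the difference was 0.50 and without female body 3 it was -1.49, then called (adjusted p = 0.043), so its direction rests on the array. The gene f8a read 817, 815 and 931 in ovary against 432, 355.5 and 379.6 in the body (log2 1.14 ± 0.18 (SE), adjusted p = 0.002), and serpine2 1502, 1816 and 1419.5 against 1205, 1157 and 943 (log2 0.52 ± 0.18 (SE), adjusted p = 0.041). The serpine2 call was lost without female body 2 or 3 or any 1 of the ovary arrays (adjusted p = 0.066 to 0.13) and with the replicate number as a block (adjusted p = 0.052), which in turn brought in serpind1 (adjusted p = 0.018). For apoeb the ovary arrays read 141, 574 and 115, with array 2 far above the others, against female body arrays of 5600.2, 6977 and 6585 (log2 -4.92 ± 0.56 (SE), adjusted p = 0.00043).

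The difference between gonad and body itself differed between the sexes for part of the members. In 1 fit of all 12 arrays, the testis minus male body difference was above the ovary minus female body difference in 23 of 54 tested members. It was below it in 0, and 31 were not called. These are 42.6% of the members, where 23.1% of all probe sets were called in this direction and 12.6% in the other. The median of the members was 1.05 and that of all probe sets 0.07. With each array centred on its median, which moved all probe sets to -0.72, 17 members were called in this direction and 7 in the other. The largest fitted values were those of tfa (log2 4.78 ± 0.32 (SE), adjusted p = 8.6e-07), apoeb (log2 4.53 ± 0.69 (SE), adjusted p = 0.00039) and apoa2 (log2 4.50 ± 0.47 (SE), adjusted p = 2.4e-05). All 3 fibrinogen genes and 8 of 11 carrier probe sets were among them, with 6 of 14 apolipoprotein, 4 of 11 complement, 1 of 6 plasma serpin and 1 of 5 coagulation factor probe sets. Where the ovary was at the floor, the value rests on the floor. With a floor of 100, 10 of the 23 were called. Of the fibrinogen genes fga (adjusted p = 0.23) and fgg (0.093) were lost, and of the carriers ambp (0.38), hpxa (0.28), itih3b.1 (0.77) and the itih3b.2 probe set Dr.17459.1.S1_a_at (0.60). Also lost were apoa1a, apobb.1, apoc2, f7l, c3a.6, c4 and c4b (adjusted p = 0.059 to 0.69). Of their paralogs, apoea was at log2 -0.89 ± 0.57 (SE), adjusted p = 0.24 and hpxb at log2 -1.03 ± 1.99 (SE), adjusted p = 0.72, both not called. The difference between paralogs was not tested. Without female body 3 apoea was called in the other direction (-1.38, adjusted p = 0.036). Of the exocrine pancreas genes 10 of 10 were called in the same direction as the members, of the intracellular liver genes 8 of 28, with 3 in the other, and of the other plasma protein genes 13 of 31. Other lists were also called mostly in this direction: vitellogenesis and liver estrogen response 6 of 6, testis somatic 5 of 5 and skeletal muscle 6 of 10, with 0 in the other. Fibroblast and matrix genes had 5 of 10, with 2 in the other, leukocyte genes 5 of 12, with 1, and erythrocyte genes 2 of 5, with 0. Enterocyte genes had 1 in each direction and oocyte genes 0 and 1, of 10 each. The part of these lists in the values of the members was not tested.

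Where several probe sets of a gene were tested, they were called alike, apart from those of apoba. The 3 probe sets of c9, of which Dr.2452.2.A1_a_at and Dr.2452.2.A1_x_at share a target and may detect other transcripts, gave log2 differences of -5.06 to -5.96 in testis against male body. For c3a.1, Dr.6845.1.S1_at read 263, 74.3 and 47.5 in male body and was at the floor in both gonads. For apoba, a gene of the structural protein of low density lipoprotein, Dr.4002.1.A1_at read 2675, 946.5 and 2246 in male body and was lower in testis (log2 -4.40 ± 0.49 (SE), adjusted p = 0.0002), while Dr.21929.1.A1_at was above the floor on 1 array of each body and on no gonad array, and was not called in any contrast that tested it.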

How the data were processed

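RNA of 4 groups of 3 samples was hybridised to Affymetrix zebrafish arrays of 1 colour. The authors deposited intensity values per probe set: MAS5 signals from GCOS 1.2 on a linear scale, scaled so that the trimmed mean was 500.1 to 500.2 on every array (computed here with 2% trimmed at each end). GCRMA, also named in the submitters' processing notes, did not make the values used here. No read depth applies, and the number of arrays limits the precision. Of 15617 probe sets 115 controls were left out. Signals under 32 were set to 32 and log2 was taken. The package limma 3.58.1 (R 4.3.3) was fitted to the 6 arrays of each comparison, with a trend of the variance on intensity in eBayes. All 12 arrays entered 1 fit for the sex difference of the gonad-body contrast. Probe sets above 32 on at least 1 array of the fit were tested, two-sided, with Benjamini-Hochberg adjustment over all of them, and called at an adjusted p under 0.05. A fold with "at least" sets the higher mean against the floor of 32. Summaries and figures used Python 3.11.15, NumPy 2.4.6, pandas 2.3.3, SciPy 1.17.1 and matplotlib 3.10.9. The fits were checked on simulated data.

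Gene names came from the array annotation, in which 135 probe sets have several symbols and 4572 none; neither kind was a candidate. All 56 members carry a current RefSeq symbol, and gene order is that of GRCz12tu. Genes were named by size of change (up to 10 a direction in each comparison, without overlap of the groups), as every call between the bodies, as the brightest member of a class, as fibrinogen or carrier genes, or as paralogs or probe sets called differently. The members, the lists of liver, other plasma protein, intestine, pancreas, oocyte, vitellogenesis, leukocyte, erythrocyte, fibroblast, muscle and testis genes, and this rule were chosen with earlier results of these data known. Replicate numbers come from the sample titles. Deviations from the group means correlated at 0.34 to 0.36 between testis and male body of the same number (10940 probe sets). Between ovary and female body the range was 0.24 to 0.33, and for other numbers -0.24 to -0.017. Deviations within a group sum to 0, so the values for other numbers follow in part from those for the same number. The numbers were taken to pair gonad and body within a sex, which the methods do not state. The methods list as many testis pairs, ovary pairs and bodies as there are arrays, so the arrays within a group are separate fish. Gonad and body of a number within a sex were not taken as separate fish. The main fits nevertheless treated all arrays as independent, and the replicate number entered a fit only as a block, in an alternative. Alternatives changed the floor, the filter, the scaling, the fit, the block, the test and the arrays included.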

Additional observations from a re-analysis of the deposited data

Results flagged for a closer look

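For 23 members the difference between gonad and body was itself different between the sexes, by the test of that difference in the 12-array limma fit. The value is the log2 difference of testis minus male body less that of ovary minus female body, and all 23 were above 0. Among the apolipoproteins it was 4.53 for apoeb (adjusted p = 0.00039), 4.50 for apoa2, 3.78 for apoc1, 2.74 for apoa1a, 2.17 for apobb.1 and 1.98 for apoc2 (adjusted p = 0.021). Among the carriers it was 4.78 for tfa (adjusted p = 8.6e-07), 2.84 for fetub, 2.72 for hpxa, 2.55 and 1.92 for the itih3b.2 probe sets Dr.2960.1.A1_at and Dr.17459.1.S1_a_at, 2.17 for hp, 2.09 for ambp and 1.64 for itih3b.1 (adjusted p = 0.042). The fibrinogen chains stood at 3.18 for fgb, 3.05 for fgg and 2.57 for fga (adjusted p = 0.00046 to 0.0049). In complement the values were 3.82 for c3a.6, 3.26 for c6.2, 2.81 for c4b and 2.58 for c4 (adjusted p = 0.00062 to 0.018). The last were serpina1l at 3.96 (adjusted p = 0.00061) and f7l at 2.00 (adjusted p = 0.021).

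Where every ovary array was at the floor, the ovary side is a bound. With a floor of 100, 10 of the 23 were called, and fga, fgg, ambp, hpxa, itih3b.1, itih3b.2 (Dr.17459.1.S1_a_at), apoa1a, apobb.1, apoc2, f7l, c3a.6, c4 and c4b were not. The itih3b.1 call was lost without female body 1 or 2, male body 1 or 3, testis 2 or 3, or any 1 of the ovary arrays (adjusted p = 0.064 to 0.098). That of itih3b.2 (Dr.17459.1.S1_a_at) was lost without female body 2, male body 3 or testis 3 (adjusted p = 0.054 to 0.057), that of apoc2 without male body 2 (0.052), that of hp without male body 3 (0.050) and that of f7l without testis 3 (0.051), each an adjusted p. The other 18 calls held when any 1 array was left out.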

How the results depend on the processing

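Calls that held under every alternative that tested the member numbered 0 of 3 between the bodies, 11 of 37 between the gonads and 27 of 46 in testis against male body. They were 30 of 50 for ovary and female body, and 9 of 23 for the sex difference of the gonad-body contrast. An alternative that did not test a member was left out of its tally. Of the 37 calls between the gonads, 23 were tested with a mean of at least 200. The count between the bodies was 1 with a floor of 100, 0 with the methods' t-test on linear signals and 0 to 6 when an array was left out (6 without female body 3, 1 without female body 1, female body 2 or male body 1, and 0 without male body 3). For testis against ovary it was 20 of 38 tested with a floor of 100, 20 with the t-test and 32 to 41 with an array left out. With a mean of at least 200 only 24 members were tested and 23 called, all 23 also called in the main fit. The t-test gave 27 for testis against male body and 32 for ovary against female body, and leaving out an array gave 44 to 46 and 48 to 50. The gonad-body contrast had 10 calls with a floor of 100, 15 after quantile normalization and 20 to 27 with an array left out. Why these counts moved was not tested, beyond the fewer probe sets that entered a test with a higher floor or with the mean filter.

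With the replicate number as a block, 8 members were called between the bodies (7 higher and 1 lower in male body, 2 of them among the 3 without it), 38 between the gonads, 49 between testis and male body, 50 between ovary and female body and 25 in the gonad-body contrast. Between the sexes the labels name nothing but a number that arrays share. Their deviations correlated at 0.064, 0.096 and 0.20 for the bodies, and at up to 0.061 for unlike numbers (male body 2 and female body 1). For the gonads the values were 0.045, -0.066 and 0.026, and up to 0.064 for unlike numbers (testis 3 and ovary 2). What arrays of a number share between the sexes was not tested.

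Centring on the median turned, among others, the testis against ovary differences of apoea to -0.49, hpxb to -0.076 and f8a to -0.77. It also turned the ovary against female body difference of c7b to 0.37. Quantile normalization turned apoeb in testis against male body to 0.33. Leaving out 1 array turned f8a in testis against ovary (-0.033 to 0.094), c3a.6 (-1.02 to 0.18) and serpine2 (-0.096 to 0.089) in testis against male body, c7b in ovary against female body (-1.49 to 0.50) and hpxb in the gonad-body contrast (-2.79 to 0.48). None of these was a call as reported, and with the median centring f8a became one (adjusted p = 0.0027). In all, 3 uncalled members, f8a among them, turned and were called between the gonads with the median centring. In ovary against female body 1 uncalled member did so. In the gonad-body contrast the median centring also turned apoba (Dr.21929.1.A1_at), which was then called, as 1 of the 7 members called in that direction (with apoea, apoa4b.2 (Dr.5488.2.A1_at), f9a, serpinb1l3, serpine2 and serpinh1b).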
